A study of Mus musculus with 12 samples.

Results

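The 10 genes described here encode interleukins and colony-stimulating factors that OPCs could send to other cells: *Il6*, *Lif*, *Csf1*, *Csf3*, *Il34*, *Il1b*, *Il18*, *Il33*, *Il12a* and *Il15*. They were taken by symbol from 45563 symbols measured in primary mouse OPCs, the precursors of myelinating oligodendrocytes. The OPCs were WT C57BL/6 or germline TNFR2-/- (labelled as C57BL/6 too), so the receptor gene was disrupted in every cell and not in OPCs alone. They were selected for PDGFRα with magnetic beads from cortices of pups aged 2 to 5 days by the labels (3 to 5 by the methods) and kept for 3 days with PDGF-AA and FGF2. Non-stimulated (NS) OPCs received PBS, and stimulated (St) OPCs received TNF, IFNγ and IL1β at 25 ng/mL each for 3 h before RNA was taken. Each of the 4 groups had 3 libraries, numbered 2, 3 and 4 in WT and 2, 4 and 5 in TNFR2-/-. The pups' sex and the number of pups per culture are not given in the sources used here, and p-values measure the spread between these libraries only.

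*Il6* and *Lif* belong to the cytokines that signal through the shared receptor chain gp130, and both act on glia and neurons as well as on immune cells. *Csf1* and *Il34* encode the ligands of CSF1R, the receptor on which microglia depend for survival, and *Csf3* encodes G-CSF, which drives the production of neutrophils. *Il1b*, *Il18* and *Il33* belong to the IL1 family, in which IL1β and IL18 are cut to their active forms by caspase-1 while IL33 is kept in the nucleus and released by damaged cells. *Il12a* encodes a subunit of IL12 and *Il15* a factor for natural killer and memory T cells, which is presented by its own receptor chain. Transcription of many cytokine genes is switched on by NF-kB, AP-1 and interferon-responsive factors, and AU-rich elements in the 3′ ends of their mRNAs are bound by proteins that shorten the mRNA's life.

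Promoter sequence from RefSeq (GRCm38.p6) was found for 7 of the 10 members. The bases before the start site, 250 for each but *Lif* (239), are printed for the 3 members with the highest folds among those called after stimulation, and for *Il18*, a highly expressed member that was not called. Capitals mark letters of the NF-kB motif (GGGA and CC with any 4 bases between) or the AP-1 motif (TGANTCA), searched on both strands together with a STAT motif known as GAS (TTCNNNGAA) and the interferon motif ISRE (GAAA repeated after any 2 bases).
*Il6* (chr5:30012864-30013113, plus strand): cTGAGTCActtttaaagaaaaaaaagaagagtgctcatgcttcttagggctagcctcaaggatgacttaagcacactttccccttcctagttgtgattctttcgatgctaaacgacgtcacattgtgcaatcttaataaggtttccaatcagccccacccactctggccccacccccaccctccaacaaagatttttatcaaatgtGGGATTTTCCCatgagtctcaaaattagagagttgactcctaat
*Lif* (chr11:4257318-4257556, plus strand, ending where the annotated transcript starts): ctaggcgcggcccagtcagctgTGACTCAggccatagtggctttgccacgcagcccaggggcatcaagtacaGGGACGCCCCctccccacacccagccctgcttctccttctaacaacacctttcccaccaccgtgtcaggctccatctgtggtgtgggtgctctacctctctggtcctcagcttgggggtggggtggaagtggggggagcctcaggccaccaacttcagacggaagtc
*Csf1* (chr3:107760470-107760719, minus strand): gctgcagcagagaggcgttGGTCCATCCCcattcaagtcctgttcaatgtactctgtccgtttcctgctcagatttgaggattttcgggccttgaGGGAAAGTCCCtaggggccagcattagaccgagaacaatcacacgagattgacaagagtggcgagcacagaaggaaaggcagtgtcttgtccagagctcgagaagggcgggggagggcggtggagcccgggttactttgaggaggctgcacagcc
*Il18* (chr9:50554450-50554699, plus strand): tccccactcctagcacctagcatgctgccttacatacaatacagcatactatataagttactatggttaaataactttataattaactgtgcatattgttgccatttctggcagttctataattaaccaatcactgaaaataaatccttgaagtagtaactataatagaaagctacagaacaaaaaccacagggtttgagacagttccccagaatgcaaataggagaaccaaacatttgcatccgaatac
The *Il6* window held NF-kB letters on both strands, overlapping, from 44 to 34 bases before the start, and AP-1 letters from 249 to 243. The *Csf1* window held NF-kB letters from 155 to 145, again on both strands, and from 231 to 222. The *Lif* window held NF-kB letters from 178 to 169 and AP-1 letters from 228 to 222 before the RefSeq start. No match of the 4 motifs was in the windows of *Il18* and *Il1b* or in either window of *Il33*, and 1 of the 2 *Il12a* windows held NF-kB letters. Of 32851 windows of this length, 17.6% held the NF-kB letters, 6.75% AP-1, 7.02% GAS and 2.98% ISRE. A match is a description of the letters and not of binding.

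AU-rich letters (TATTTAT) were counted in the longest 3′ UTR of each gene's principal transcripts in GENCODE M21, where 26.1% of 20718 coding genes held at least 1. *Lif* and *Il12a* had 5 each, and 0.743% of genes had 5 or more. This share takes no account of length. The 3′ UTR had 3180 bases in *Lif* and 493 in *Il12a*, against a median of 850. *Il1b* had 3 and *Csf3* had 2, *Il6* and *Csf1* had 1 each, and *Il34*, *Il18*, *Il33* and *Il15* had none. For the members that rose after stimulation and held the letters, a stretch of 30 bases shows them in capitals.
*Il6*, 179 to 208 bases after the stop codon: atttatgattgaTATTTATtatttttatga
*Lif*, 1143 to 1172 bases after the stop codon: gtcTATTTATtactatgtccTATTTATatt
*Csf1*, 220 to 249 bases after the stop codon: acatactgccacTATTTATtgtgggccctg
*Csf3*, 28 to 57 bases after the stop codon: gttTATTTATctctatttaaTATTTATgca

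Values were deposited as FPKM, and whole reads were recovered from them, with library totals of 26886878 to 30335265. What 1 read was worth in FPKM, gene by gene, did not follow exon length in the annotation (Spearman rho 0.01 over 16010 genes, a description across genes that do not vary independently). Levels in FPKM are therefore compared between libraries of 1 gene, and levels of different genes only per kilobase of exon. The defining OPC genes *Pdgfra* (8000 to 20680 reads) and *Cspg4* (6579 to 13461) were high in all 12 libraries. Of 15 microglial genes, *Tyrobp* and *Fcrls* had 0 reads throughout and *Csf1r* had 2 to 9. For *Tnfrsf1b*, the TNFR2 gene, reads ran from 12 to 24 (WT) against 213 to 346 (labelled TNFR2-/-) without stimulation, and from 61 to 145 against 282 to 356 with it. A sum over the whole gene cannot show whether the disrupted part is transcribed, so this does not check the labels, and each direction between genotypes rests on them.

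A call required 3 things of a member: an adjusted p (limma, Benjamini-Hochberg over 18081 genes) no higher than 0.05, a change of 1.5-fold or more on the scale of FPKM + 0.5, and 1 FPKM or more as its mean over the 12 libraries. *Il1b* and *Il12a* were below the 0.1 FPKM needed for a test, so 8 of the 10 members were tested. These levels and the added 0.5 FPKM were the same for every gene. They therefore stand for numbers of reads that differ between genes without following exon length. Which genes were tested and called, also in the shares of all genes, depends on them. The plot of log2 levels by library shows all 10.

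**Figure D1:**
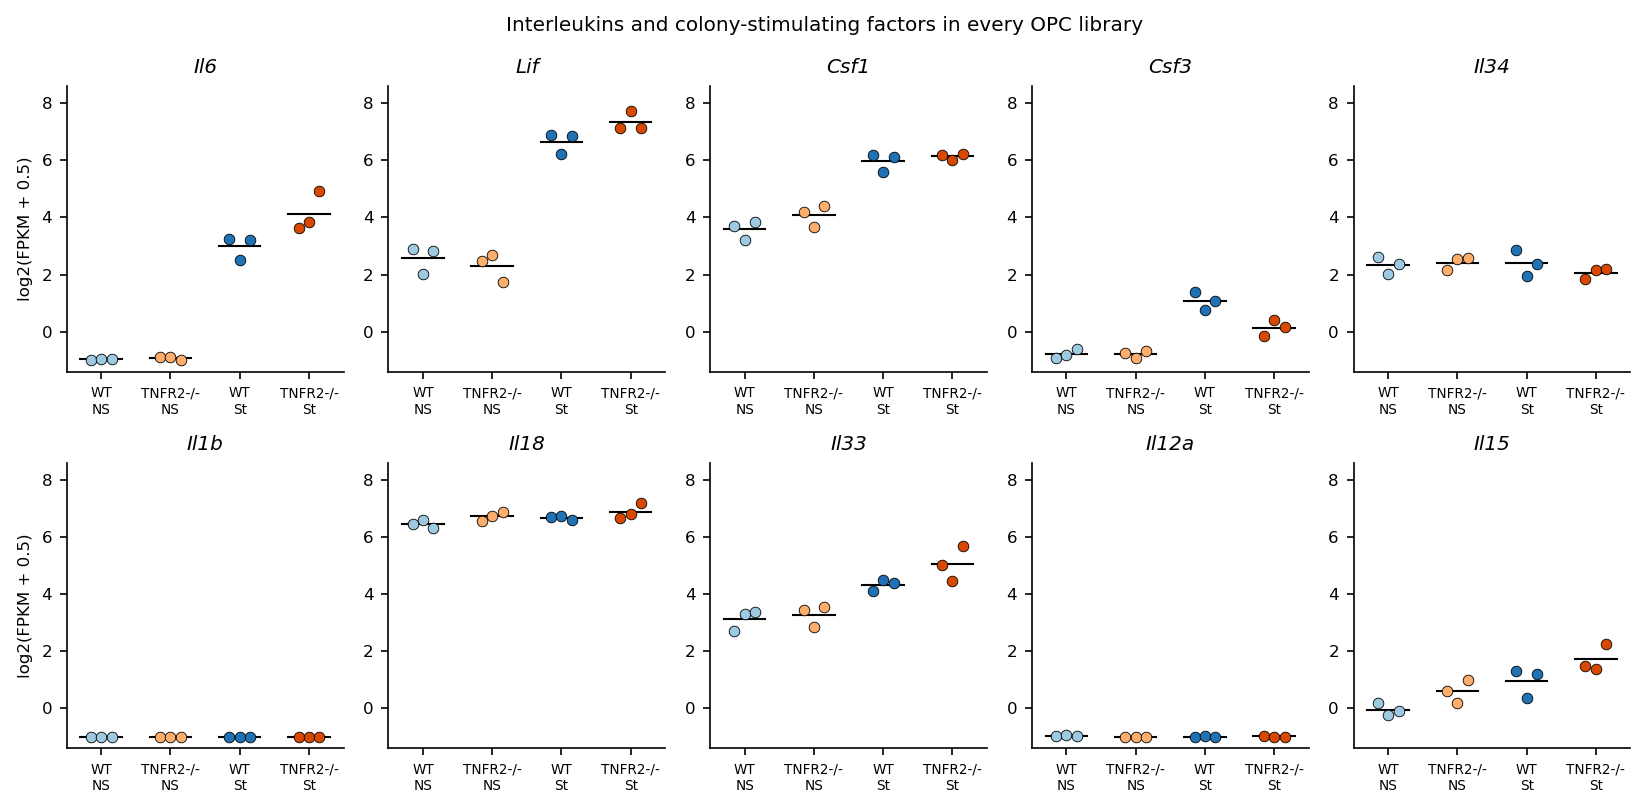
Levels of the 10 members in every library, as log2(FPKM + 0.5), in WT and TNFR2-/- OPCs, not stimulated (NS) or stimulated (St). Points are libraries in the order of their replicate numbers, and bars are means of 3. Il6 and Lif lie far above NS levels in St libraries of both genotypes, Il18 and Il34 stay within a narrow band, and Il1b and Il12a lie at the bottom of the scale throughout.

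After stimulation 4 members were called higher in WT OPCs (*Il6*, *Lif*, *Csf1* and *Il33*) and 5 in TNFR2-/- OPCs (those 4 and *Il15*), and no member was called lower. Among all genes tested, 4.58% were called higher and 2.95% lower in WT, and 5.41% higher and 4.68% lower in TNFR2-/-. For 6 of the 10 members, *Csf3* and *Il15* included, the lowest St library lay above the highest NS library in both genotypes. The same held for 13.7% of all genes in WT and 12.7% in TNFR2-/-. Every St library lay below every NS library for 24% and 24.7% of genes and for 0 members. In bulk libraries such as these, a change in the number of cells of a type and a change in RNA per cell cannot be told apart. The summed level of the 10 OPC genes listed, in CPM (recovered reads scaled by library total), was lower in every St library than in every NS library of its genotype, at 8635 to 10010 in WT NS and 7171 to 8246 in WT St, and at 8641 to 9418 in TNFR2-/- NS and 7522 to 8231 in TNFR2-/- St. That of 10 neuronal genes was higher in every St library, at 1019 to 1156 and 1253 to 1378 in WT, and at 921 to 933 and 1317 to 1413 in TNFR2-/-. Single genes did not all follow these sums. Of the 10 OPC genes, 2 were higher after stimulation in each genotype, 1 of them called in WT. Of the 10 neuronal genes, 6 were higher in WT (1 called higher, 1 lower) and 7 in TNFR2-/- (2 called higher, 1 lower). The part of cell numbers in the members' changes on stimulation was not tested. Between genotypes no member was called in NS or in St OPCs, against 1.62% of all genes higher and 1.28% lower in NS, and 1.18% and 0.614% in St. The members' libraries overlapped between genotypes for all 8 tested in NS OPCs, and did not overlap for *Il6*, *Lif* and *Il15* (higher) and *Csf3* (lower) in St OPCs. Among all genes, libraries did not overlap for 19.9% (higher) and 14.3% (lower) in NS and for 15.4% and 17.3% in St OPCs.

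**Figure D2:**
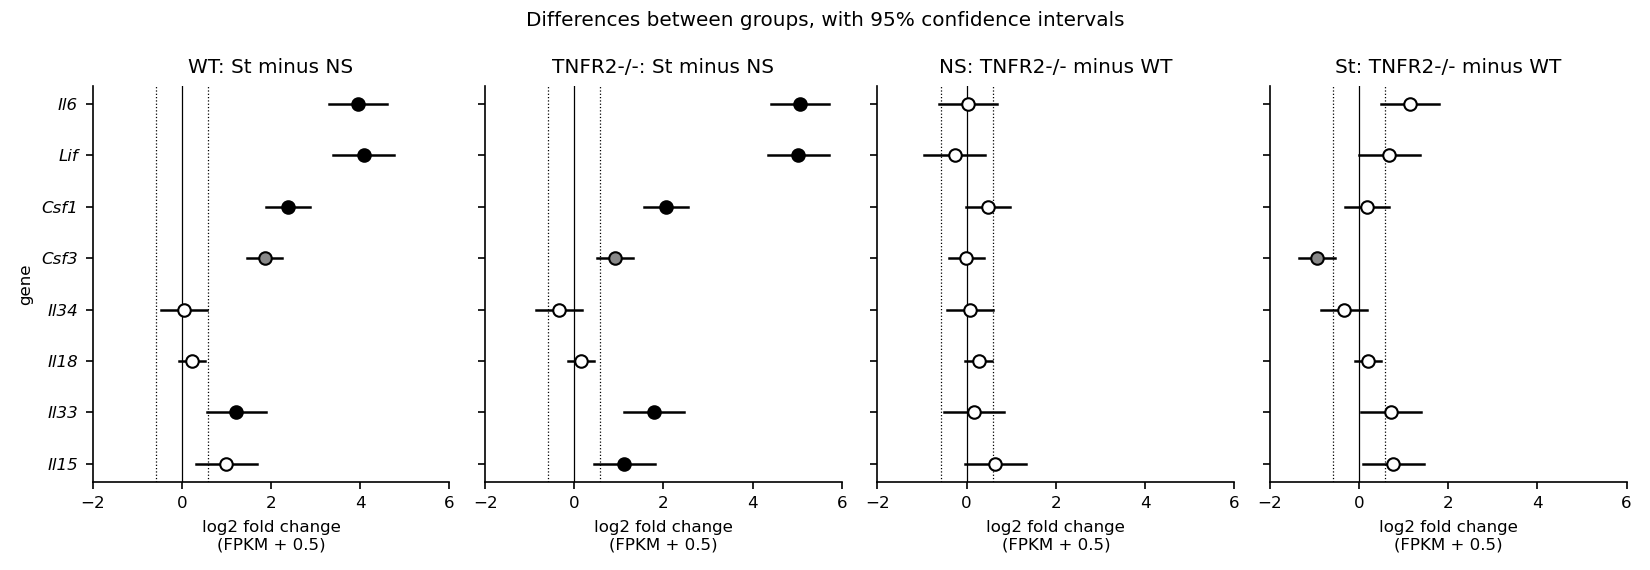
Log2 fold changes of the 8 tested members (log2 of FPKM + 0.5) with 95% confidence intervals, for stimulation in each genotype and for genotype in each condition. Black points were called, grey points (Csf3) passed the adjusted p and the fold but not the level of 1 FPKM, white points were not called, and dotted lines mark 1.5-fold. Il6 and Lif lie far to the right of the lines after stimulation in both genotypes, while no genotype comparison holds a black point.

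*Il6* (ENSMUSG00000025746; chromosome 5, 30013114 to 30019981 on GRCm38, plus strand) was nearly silent in NS OPCs. It had 0, 1 and 1 reads in WT NS libraries 2, 3 and 4, and 2, 2 and 0 in TNFR2-/- NS libraries 2, 4 and 5. After stimulation it had 463, 272 and 456 reads in WT and 621, 722 and 1476 in TNFR2-/-. All 6 St libraries were far above all 6 NS libraries, and every TNFR2-/- St library was above every WT St library, replicate 5 most of all. In FPKM this was 7.63 ± 2.07 in WT St and 18.5 ± 9.77 in TNFR2-/- St (SD, n = 3). The log2 fold change on stimulation was 3.95 ± 0.30 (SE, adjusted p = 5.73e-06) in WT and 5.06 ± 0.30 (adjusted p = 7.01e-07) in TNFR2-/-. These values understate the change, since the NS level is far under the added 0.5 FPKM. Taken from reads summed over the libraries of a group and divided by their totals, the ratio of St to NS was 574 in WT (95% interval 158 to 4740, exact, counting error only) and 719 in TNFR2-/- (280 to 2640).

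In St OPCs the log2 difference in *Il6* between libraries labelled TNFR2-/- and WT was 1.14 ± 0.30 (95% interval 0.49 to 1.80), which missed the threshold (adjusted p = 0.0517). Over 22 alternative settings the difference ranged from 0.75 to 1.39 with adjusted p from 0.0451 to 0.173, and it was called in 4 of them. Without TNFR2-/- St replicate 5, the highest library, it was the lowest of these, 0.75. The test of whether stimulation acted differently in the 2 genotypes gave a log2 difference of 1.11 (adjusted p = 0.563).

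*Lif* (ENSMUSG00000034394; chromosome 11, 4257557 to 4272514, plus strand) had 569, 264 and 540 reads in WT NS and 422, 496 and 239 in TNFR2-/- NS. It reached 9687, 6137 and 9487 reads in WT St and 11525, 17513 and 11067 in TNFR2-/- St. The NS libraries of the genotypes were interleaved, whereas all 3 TNFR2-/- St libraries lay above all 3 WT St libraries. The mean rose from 5.69 ± 1.83 to 102 ± 24.1 FPKM in WT (log2 fold change 4.07 ± 0.31, adjusted p = 6.07e-06) and from 4.65 ± 1.60 to 164 ± 40.9 FPKM in TNFR2-/- (5.02 ± 0.31, adjusted p = 9.82e-07). The genotype difference in St OPCs, 0.68 ± 0.31, did not pass (95% interval -0.00 to 1.36, adjusted p = 0.189). Pairing each St library with the NS library of its replicate number, *Lif* rose 16.99-, 20.8- and 17.5-fold in WT cultures 2, 3 and 4 and 27.4-, 35.3- and 48.9-fold in TNFR2-/- cultures 2, 4 and 5.

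*Csf1* (ENSMUSG00000014599; chromosome 3, 107741048 to 107760469, minus strand) was already well expressed without stimulation. WT NS libraries had 2301, 1432 and 2510 reads and TNFR2-/- NS libraries 3249, 2219 and 3758. In St libraries the reads were 13311, 8727 and 12441 in WT and 13265, 11738 and 12773 in TNFR2-/-. Its folds per culture ran from 4.94- to 5.77-fold in WT and from 3.59- to 5.29-fold in TNFR2-/-, and these ranges overlapped. The log2 fold change was 2.38 ± 0.22 in WT (adjusted p = 3.29e-05) and 2.06 ± 0.22 in TNFR2-/- (adjusted p = 7.37e-05). Between genotypes the difference was 0.49 ± 0.22 in NS (adjusted p = 0.169) and 0.17 ± 0.22 in St OPCs (95% interval -0.32 to 0.66, adjusted p = 0.657), so a difference of up to 0.66 in St OPCs is within the interval.

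*Il34* (ENSMUSG00000031750; chromosome 8, 110741829 to 110805924, minus strand), the other ligand of CSF1R, did not pass any test. It had 139 to 244 reads in WT NS, 170 to 238 in TNFR2-/- NS, 147 to 292 in WT St and 132 to 174 in TNFR2-/- St, and the groups overlapped in each comparison. The log2 fold change on stimulation was 0.05 ± 0.23 in WT (adjusted p = 0.926) and -0.35 ± 0.23 in TNFR2-/- (adjusted p = 0.308). With the replicate number as a block, the TNFR2-/- value of -0.35 passed the adjusted p (0.0104) but not the fold. Exons of 2 genes on the opposite strand, *Gm15894* and *Gm15895*, overlap those of *Il34*, and how the reads were assigned to strands is not given in the sources used here.

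*Csf3* (ENSMUSG00000038067; chromosome 11, 98701263 to 98703629, plus strand) rose in both genotypes and stood lower in TNFR2-/- St OPCs than in WT. NS libraries had 1, 2 and 5 reads in WT and 3, 1 and 4 in TNFR2-/-, and St libraries had 69, 39 and 52 in WT and 13, 27 and 19 in TNFR2-/-. The 3 TNFR2-/- St libraries lay above all NS libraries and below all WT St libraries. *Csf3* passed the adjusted p and the fold on stimulation in WT (log2 fold change 1.85 ± 0.18, adjusted p = 4.53e-05) and in TNFR2-/- (0.92 ± 0.18, adjusted p = 0.00391), and was lower in St libraries labelled TNFR2-/- than in WT (log2 difference -0.94 ± 0.18, adjusted p = 0.0248). It was not called, since its mean over all libraries, 0.604 FPKM, was under 1. With summed reads over summed totals, as for *Il6*, the ratio of St to NS was 19.3 in WT (95% interval 9.54 to 45.4, counting error only) and 7.52 in TNFR2-/- (3.58 to 18.2), and that of TNFR2-/- St to WT St was 0.374 (0.273 to 0.507). The adjusted p of the genotype difference ranged from 0.0196 to 0.0877 over 22 alternatives and missed the threshold in 6 of them, 4 of which leave out 1 St library (WT replicate 2 or 4, TNFR2-/- replicate 2 or 5). The test of whether the response differed between genotypes did not pass (-0.93 ± 0.26, adjusted p = 0.496).

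Of the IL1 family, *Il33* rose and *Il18* did not pass the test. *Il33* (ENSMUSG00000024810; chromosome 19, 29925114 to 29960718, plus strand) had 380, 531 and 620 reads in WT NS, 656, 431 and 718 in TNFR2-/- NS, 1077, 1405 and 1311 in WT St and 2025, 1385 and 3121 in TNFR2-/- St. Every St library exceeded every NS library, and the highest was again TNFR2-/- replicate 5. The log2 fold change was 1.22 ± 0.30 in WT (adjusted p = 0.0191) and 1.78 ± 0.30 in TNFR2-/- (adjusted p = 0.00163). In WT the call was lost without WT NS replicate 2 (adjusted p = 0.077), WT St replicate 3 (0.0651) or WT St replicate 4 (0.0627). Between genotypes the St libraries overlapped, with a difference of 0.72 ± 0.30 (adjusted p = 0.162), which was 0.40 without TNFR2-/- St replicate 5 (adjusted p = 0.447).

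*Il18* (ENSMUSG00000039217; chromosome 9, 50554827 to 50581840, plus strand) had 707 to 788 reads in WT NS, 847 to 1056 in TNFR2-/- NS, 859 to 951 in WT St and 901 to 1254 in TNFR2-/- St. The log2 fold change on stimulation was 0.22 ± 0.13 in WT (95% interval -0.08 to 0.52, adjusted p = 0.339) and 0.16 ± 0.13 in TNFR2-/- (-0.14 to 0.45, adjusted p = 0.441). It was higher in the St library in all 6 cultures, by 0.05 to 0.33, and with the replicate number as a block the WT value of 0.22 passed the adjusted p (0.0310) but not the fold.

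*Il1b* (ENSMUSG00000027398; chromosome 2, 129364570 to 129371139, minus strand) had 0 reads in 10 of 12 libraries and 1 read each in WT St replicate 3 and TNFR2-/- St replicate 2. IL1β itself was part of the stimulus, as a recombinant protein that adds no RNA. A count of 0 allows up to 3 reads a library, so a change in *Il1b* within that limit was not detectable at this depth. The exons of *Il1bos* on the opposite strand overlap those of *Il1b*. *Il12a* (ENSMUSG00000027776; chromosome 3, 68690644 to 68698547, plus strand) had 1, 3 and 2 reads in WT NS, 0 in each TNFR2-/- NS library, 0, 1 and 0 in WT St and 2, 0 and 0 in TNFR2-/- St. The NS genotypes did not overlap, but all counts are at or under that limit and no fold is given. The exact permutation test gave p = 0.1, the smallest that 3 against 3 libraries can give (two-sided, n = 3), and its value whenever such groups do not overlap.

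*Il15* (ENSMUSG00000031712; chromosome 8, 82331632 to 82403222, minus strand) was low, with 18, 9 and 12 reads in WT NS, 29, 18 and 42 in TNFR2-/- NS, 55, 22 and 50 in WT St and 64, 60 and 116 in TNFR2-/- St. St libraries lay above NS libraries of the same genotype without overlap. On stimulation the log2 fold change was 0.99 ± 0.31 in WT, which missed the threshold (adjusted p = 0.0536), and 1.12 ± 0.31 in TNFR2-/-, which was called (adjusted p = 0.0229). With the replicate number as a block the WT value of 0.99 was called as well (adjusted p = 0.00382), which makes 5 members in each genotype. The TNFR2-/- call was lost without TNFR2-/- NS replicate 2 (adjusted p = 0.0552), TNFR2-/- NS replicate 4 (0.0786) or TNFR2-/- St replicate 5 (0.0741). The log2 difference of TNFR2-/- from WT was 0.76 ± 0.31 in St OPCs (adjusted p = 0.150), with no overlap, and 0.64 ± 0.31 in NS OPCs (adjusted p = 0.195), and neither passed. With the replicate number as a block they were 0.34 and 0.21. Between genotypes that block matches libraries by number, although the numbers did not pair cultures across genotypes. On recovered reads with voom the 2 differences were 0.96 and 1.06. The St difference was 0.47 without WT St replicate 3 and 0.49 without TNFR2-/- St replicate 5.

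The order of the members by level changed with stimulation, measured as RPKM computed from recovered reads, library totals and annotated exon length. In WT NS OPCs *Il18* was highest at 25.4 RPKM, then *Csf1* at 13.5, *Il33* at 6.13, *Lif* at 3.59 and *Il34* at 3.41, the last pair with overlapping libraries. *Il15* (0.197), *Csf3* (0.0648), *Il12a* (0.0415) and *Il6* (0.00969) were far lower. In WT St OPCs *Csf1* (72.4) and *Lif* (64.5) were highest, with overlapping libraries, then *Il18* (29.6), *Il33* (14.6) and *Il6* (5.44), the last overlapping with *Il34* (3.63). In TNFR2-/- St OPCs *Lif* (103) lay above *Csf1* (80.5) in every library, and *Il6* (13.2) lay above *Il34* (2.73) in every library.

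**Figure D3:**
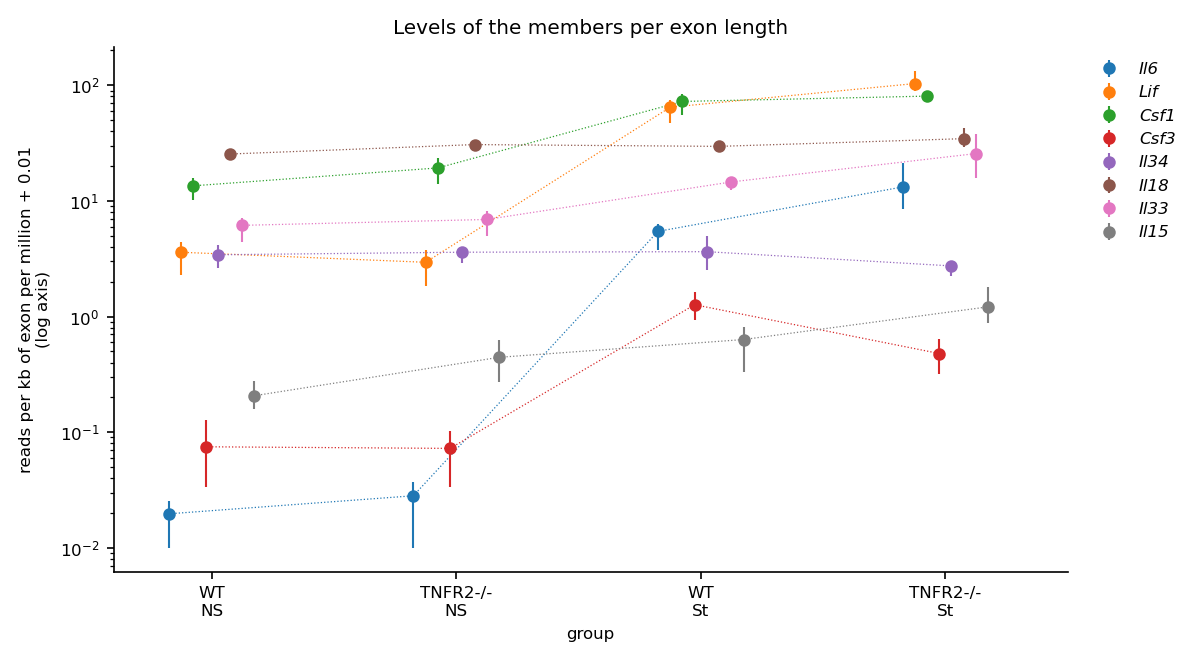
Level of the 8 tested members in each group, as RPKM computed from recovered reads and exon length on a log axis, after adding 0.01. Points are means of 3 libraries and bars run from the lowest to the highest library. Il6 moves from the lowest of the 8 in NS groups to above Il34, Il15 and Csf3 in St groups, while Lif passes Il33 and Il18.

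Between NS and St libraries with the same replicate number, the responses of 5 members did not overlap between genotypes. On the log2 scale *Il6* rose by 3.46 to 4.23 in the 3 WT cultures and by 4.53 to 5.92 in the 3 TNFR2-/- cultures, *Lif* by 3.99 to 4.20 and 4.65 to 5.39, and *Il33* by 1.04 to 1.43 and 1.58 to 2.15. *Csf3* rose by 1.58 to 2.30 in WT and by 0.60 to 1.32 in TNFR2-/- cultures. For *Il34* the differences were -0.07 to 0.24 in WT and -0.37 to -0.32 in TNFR2-/-. Among all genes tested, 9.87% had higher responses in TNFR2-/- cultures without overlap and 18.3% lower ones. The fit across all genes tested this difference without pairing libraries by culture. None of the 8 members passed (lowest adjusted p = 0.496, for *Csf3*), and 0.00553% of genes, a single gene, did. Over 21 alternatives, the culture block among them, no member passed either, and the lowest adjusted p was 0.0968, for *Lif*. With 3 cultures per genotype the exact permutation test cannot go below p = 0.1, the value for each of these 5 members. Groups of 3 without overlap always give that value, so it adds nothing to the absence of overlap.

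**Figure D4:**
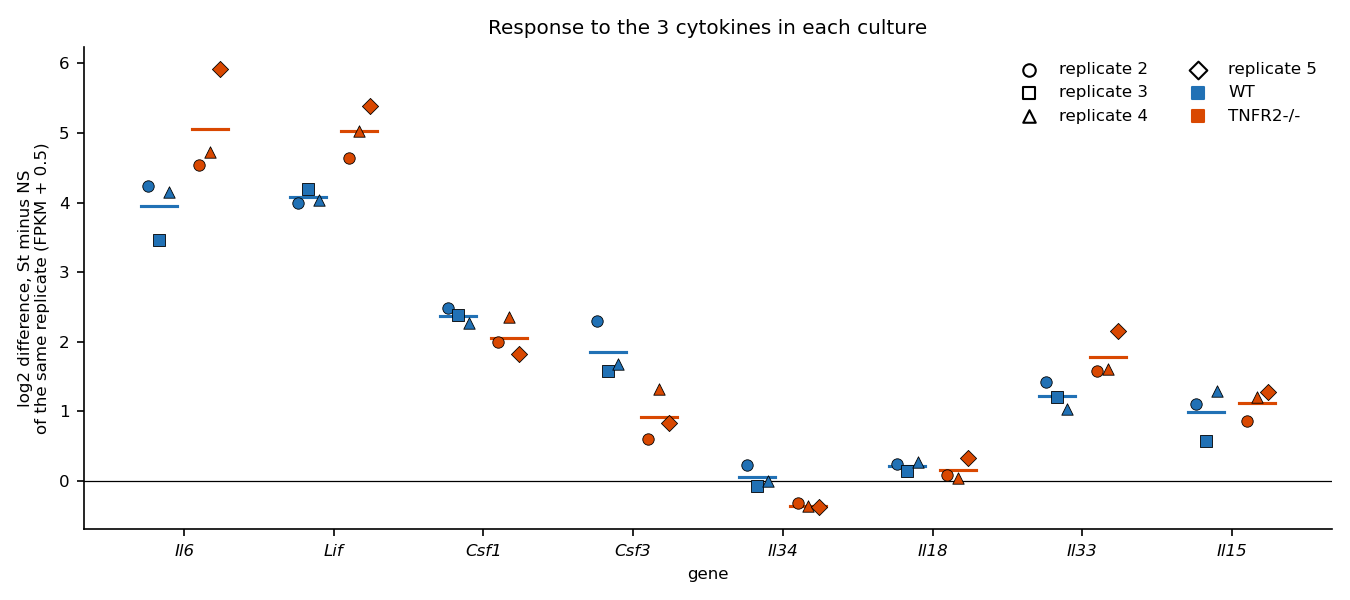
Response of the 8 tested members in each culture, as the log2 difference (FPKM + 0.5) between the St and NS libraries of the same replicate number. Bars are means of 3 cultures. The TNFR2-/- cultures lie above the WT cultures for Il6, Lif and Il33 and below them for Csf3 and Il34, and overlap them for Csf1, Il18 and Il15.

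Without stimulation, the log2 difference between TNFR2-/- and WT was small for *Il6* (0.03), *Csf3* (-0.01), *Il34* (0.07), *Il33* (0.16), *Il18* (0.27) and *Lif* (-0.27), and larger for *Csf1* (0.49) and *Il15* (0.64), with adjusted p from 0.169 to 0.993. In the comparison of genotypes, 1.62% of all genes were called higher and 1.28% lower in NS libraries labelled TNFR2-/-, and 1.18% and 0.614% in St libraries. Libraries did not overlap for 19.9% (higher) and 14.3% (lower) of genes in NS and for 15.4% and 17.3% in St OPCs, against 3 members higher and 1 lower in St OPCs. Other measures moved with the genotype. All 10 astrocyte genes listed were higher in libraries labelled TNFR2-/- in both conditions (2 called in each), and their summed level was 2168 to 2509 CPM in WT NS, 3094 to 4837 in TNFR2-/- NS, 2038 to 2112 in WT St and 3078 to 4709 in TNFR2-/- St. None of the 10 was at 0 in any library, and *Gfap* had 251 to 10491 reads. The summed level of 12 mural cell and fibroblast genes ran from 913 to 1758 in WT against 547 to 1153 in TNFR2-/- libraries without stimulation and from 828 to 1499 against 368 to 930 with it, overlapping in both conditions. These 12 include *Cspg4* (6579 to 13461 reads), which is also 1 of the 10 OPC genes, so OPC transcripts are part of this sum. The highest counts among the rest were those of *Acta2* (2007 to 25471) and *Tagln* (1782 to 14252). The neuronal sums given above were lower in every TNFR2-/- NS library than in every WT NS library, and overlapped in St OPCs. Of the 10 neuronal genes, 1 was higher in TNFR2-/- NS OPCs and 0 were called. The OPC sums overlapped between genotypes in both conditions, with 2 of the 10 OPC genes called lower in TNFR2-/- St OPCs. The 15 microglial genes summed to 18.4 to 20.2 CPM in WT against 15.2 to 18.2 in TNFR2-/- libraries without stimulation, and to 17.6 to 19.5 against 19.9 to 21.9 with it, without overlap in either condition and in opposite directions. The 10 interferon-stimulated genes listed were all higher in TNFR2-/- NS OPCs (4 called), at 26.8 to 36.3 CPM in WT NS and 50.7 to 64.9 in TNFR2-/- NS, and at 8366 to 9023 in WT St and 8473 to 9965 in TNFR2-/- St. The part of other cells in the members' genotype values was not tested.

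Other cytokine genes listed with the members were mostly silent. Of 40 other interleukins, 36 were in the tables and 13 passed the filter on low values, with a median log2 fold change of 0.43 in WT and 0.63 in TNFR2-/- against -0.06 and -0.11 over all genes. *Tslp*, an epithelial alarmin, rose by 2.83 ± 0.27 in WT (adjusted p = 4.00e-05) and 3.37 ± 0.27 in TNFR2-/- (adjusted p = 7.88e-06), from 4 to 11 reads in NS to 41 to 151 in St libraries. *Il23a*, a subunit of IL23, was called higher in both genotypes, from 1 to 3 reads in NS to 6 to 8 in St libraries. *Csf3*, with 13 to 69 reads in St libraries, was under the level in FPKM for a call. *Il17d* fell by 0.80 in TNFR2-/- OPCs (adjusted p = 0.000201) and by 0.40 in WT (adjusted p = 0.0189), where the fold was too small for a call. No gene of this list was called between genotypes, though 2 passed the adjusted p in St OPCs. Of 11 other IL6-type, colony-stimulating and haematopoietic factors, 8 were tested and 2 called higher in both genotypes (medians 0.39 and 0.27), with 0 called between genotypes. *Csf2*, which encodes GM-CSF, had 0 reads in all WT NS libraries, 0 to 2 in TNFR2-/- NS, 18 to 27 in WT St and 6 to 23 in TNFR2-/- St. *Kitl*, the ligand of Kit, rose by 0.88 ± 0.17 in WT (adjusted p = 0.00434) and 0.78 ± 0.17 in TNFR2-/- (adjusted p = 0.00614).

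Of 17 receptor genes for the members, 11 were tested and 5 were called higher after stimulation in both genotypes, with a median of 0.95 in WT and 0.74 in TNFR2-/-. *Il15ra*, which presents IL15, led them at 2.74 ± 0.13 in WT (adjusted p = 1.41e-07) and 3.14 ± 0.13 in TNFR2-/- (adjusted p = 4.86e-08). *Lifr*, the receptor for LIF, rose by 1.67 ± 0.10 and 1.86 ± 0.10, and *Il6st*, which encodes gp130, by 0.95 ± 0.13 and 1.18 ± 0.13. *Il18rap* rose by 1.22 ± 0.36 and 2.17 ± 0.36. *Il1r1*, the receptor for IL1β, rose by 1.43 ± 0.29 (adjusted p = 0.00700) and 1.55 ± 0.29 (adjusted p = 0.00315), and was also higher in libraries labelled TNFR2-/- than in WT by 1.09 ± 0.29 in NS (adjusted p = 0.0417) and 1.21 ± 0.29 in St OPCs (adjusted p = 0.0440). *Il1rap*, its co-receptor, was lower in NS libraries labelled TNFR2-/- (log2 difference -0.60 ± 0.10, adjusted p = 0.0142).

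Of 14 genes for the processing of the cytokines or the decay of their mRNAs, all were tested and 8 were called higher after stimulation in both genotypes (medians 1.40 in WT and 1.02 in TNFR2-/-). *Casp4*, an inflammatory caspase, went from 0 to 6 reads in NS to 429 to 885 in St libraries. *Zfp36*, which encodes the AU-rich element binding protein tristetraprolin, rose by 3.76 ± 0.23 in WT (adjusted p = 1.34e-06) and 4.27 ± 0.23 in TNFR2-/- (adjusted p = 4.50e-07). *Arid5a*, whose product stabilizes *Il6* mRNA, rose by 2.52 ± 0.14 and 3.00 ± 0.14, and *Zc3h12a*, which encodes Regnase-1, a nuclease of *Il6* mRNA, by 2.06 ± 0.27 and 2.27 ± 0.27. *Casp1*, the caspase that cuts IL1β and IL18, was the 1 gene of the list called between genotypes, 1.06 ± 0.23 higher in St libraries labelled TNFR2-/- (adjusted p = 0.0319), with 186 to 261 reads in WT St and 309 to 575 in TNFR2-/- St.

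Of 20 transcription factors and regulators of cytokine genes, 17 were called higher after stimulation in WT and all 20 in TNFR2-/- (medians 1.97 and 2.39). *Irf8* rose by 8.15 ± 0.14 in WT and 7.83 ± 0.14 in TNFR2-/-, *Irf1* by 7.28 ± 0.13 and 6.69 ± 0.13, and *Tnfaip3*, the NF-kB inhibitor A20, by 4.02 ± 0.19 and 4.43 ± 0.19. In NS OPCs *Fos* (-1.25 ± 0.23, adjusted p = 0.0164), *Jun* (-1.01 ± 0.23, adjusted p = 0.0282) and *Rel* (-0.74 ± 0.13, adjusted p = 0.0156) were lower in libraries labelled TNFR2-/-. *Cebpb* (0.72 ± 0.17, adjusted p = 0.0307) and *Irf1* (0.66 ± 0.13, adjusted p = 0.0188) were higher there. No gene of this list was called between genotypes in St OPCs.

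The genes whose log2 levels followed a member most closely were sought among 13553 other genes that averaged 1 FPKM or more, by Pearson correlation over the 12 libraries. Each value is a description, since the libraries share the contrast between NS and St. *Il6* was closest to *Ifi203* (0.999) and *Cxcl9* (0.997), *Lif* to *Map3k8* and *Ccl2* (both 0.995), *Csf1* to *Slc39a1* (0.992) and *Il4ra* (0.986), *Il33* to *Aim1* (0.973) and *Ttpal* (0.970), and *Il15* to *Tmem200b* (0.9797) and *Scfd1* (0.977). The closest genes were less alike for the members that stimulation did not move past the threshold, *Il34* with *Lgals3* (0.922) and *Lpcat2* (0.907) and *Il18* with *Slc46a3* (0.905) and *Lars* (0.899).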

How the data were processed

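RNA of 12 OPC libraries in 4 groups of 3 was sequenced, per the study's methods as paired-end reads on a BGISeq-500, whereas the labels name Illumina protocols. Upstream, the authors used Trim Galore for trimming and STAR for alignment to GRCm38 (Ensembl genes) and for counts of read pairs, and they deposited FPKM from edgeR in a table per condition. Of 45792 entries per table, 229 that share 99 symbols were left out. Counts were recovered from the FPKM, each a whole multiple of what 1 read is worth: all 26636 genes above 0 in at least 2 libraries came out whole in every library, within 0.0001 reads.

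limma 3.58.1 (R 4.3.3) was fitted to log2(FPKM + 0.5) with 4 group means, all 12 libraries and a trended empirical Bayes prior, over the 18081 genes averaging 0.1 FPKM or more, and was tested on simulated data. Levels per kilobase used the union of GENCODE M21 exons. Exact tests ran in scipy 1.17.1. A count of 0 allows up to 3 reads, and intervals and limits cover counting error only. Replicate numbers paired NS and St libraries within a genotype (correlations of deviations from the group means 0.338 to 0.649 for 6 same-numbered pairs over 13554 genes, -0.455 to 0.088 for the 12 other pairs), but not across genotypes (-0.055 to 0.204 for 4 pairs). The pairing comes from the numbers in the labels and this check.

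The members and gene lists were chosen with earlier results of these data known. Named were the 10 members in every comparison, up to 4 called genes per list and comparison with the largest fold change, the 2 genes most correlated with each member of at least 1 FPKM, and *Tnfrsf1b*. *Il6st*, the NS value of *Irf1* between genotypes and the marker genes of cell types were added after their values were seen. Some genes that the rule covers are not reported here. Alternatives changed the pseudocount, filter, scaling, prior, libraries, thresholds, test (voom on recovered reads) and replicate block. For stimulation and the interaction the block was the culture. Between genotypes it was the replicate number, of which only 2 and 4 occur in both genotypes, and there it matches unrelated cultures.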

Additional observations from a re-analysis of the deposited data

How the results depend on the processing

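Each count of called members, and the log2 fold change of each of 8 members in 5 comparisons, was recomputed under up to 24 alternatives. Of 872 recomputed fold changes, 821 kept their direction and their side of the adjusted p threshold, 13 lost it, 15 gained it and 23 changed sign. None of the values that changed sign had an adjusted p below 0.441 at first. The count in TNFR2-/- St vs WT St went from 0 to 1, with *Il6*, under a pseudocount of 1, a mean of at least 0.5 FPKM, median-of-ratios scaling and voom on recovered reads, and to 1, with *Csf3*, without a minimum level. The count in WT St vs WT NS was 5, with *Il15*, under a pseudocount of 0.1, a mean of at least 0.5 FPKM, median-of-ratios scaling, quantile normalization and the replicate block, and 5 with *Csf3* without a minimum level. In TNFR2-/- St vs TNFR2-/- NS it was 4 with the spread from the libraries compared and 6 without a minimum level. Leaving out 1 library gave 3 to 5 members in WT, 4 to 5 in TNFR2-/- and 0 in both genotype comparisons and the interaction. The replicate block moved the call of *Il15* in WT and no other call. For low members the fitted size depends on the pseudocount and test: *Il6* ranged from 3.06 to 8.49 in WT and from 4.14 to 9.24 in TNFR2-/-, and *Csf3* from 1.27 to 4.20 and from 0.57 to 2.78. The causes of these changes were not tested.

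Values that changed sign had small main values. Under the replicate block these were *Il6* (-0.26) and *Il34* (-0.18) in NS OPCs between genotypes and *Csf1* (-0.11) in St OPCs. Genotype values under this block match WT and TNFR2-/- libraries by number, which are not pairs. Under quantile normalization it was *Il34* in NS (-0.01), and under voom *Csf3* in NS (0.001) and the interaction of *Il15* (-0.098), which was -0.032 with a pseudocount of 0.1. With 1 library left out, the NS values between genotypes ran from -0.543 to 0.012 for *Lif*, -0.072 to 0.079 for *Csf3*, -0.080 to 0.213 for *Il34* and -0.052 to 0.371 for *Il33*. On stimulation they ran from -0.176 to 0.271 for *Il34* in WT and -0.001 to 0.269 for *Il18* in TNFR2-/-. The St value between genotypes ran from -0.012 to 0.289 for *Csf1*, and the interaction from -0.223 to 0.047 for *Il18* and -0.170 to 0.319 for *Il15*. Of the genotype values that kept their sign without passing, *Csf1* in NS ran from 0.301 to 0.701 with 1 library left out (0.208 with the replicate block), and in St OPCs *Il34* from -0.547 to -0.101, *Il18* from 0.046 to 0.316 and *Il33* from 0.403 to 1.017. Depth limits *Il1b*, *Il12a*, *Il6* and *Csf3* in NS OPCs, which had at most 5 reads per library, and FPKM cannot show the strand of reads at *Il34* and *Il1b*.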
